A study of Mus musculus with 2 samples.

Results

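The Egr and Nr4a early response genes described here are 10 of the 27969 genes measured on both arrays of the series: Egr1, Egr2, Egr3, Nr4a1, Nr4a2, Nr4a3, Nab2, Ier2, Ier3 and Btg2. They were picked out by gene symbol, from a list drawn up with earlier results of these data known. Together they had 14 probes on each array, and all 10 had at least 1. Regulatory T cells (Tregs) are the Foxp3-expressing CD4 T cells that hold other immune cells in check. The series set Tregs lacking Bcl11b, a zinc finger protein that directs T cell identity, against wild-type Tregs, all of the C57BL\6 background. On the first array, sorted Foxp3-Gfp+ cells lacking Bcl11b, which the design ties to Bcl11bF/F/Cd4Cre/Foxp3-GFP+ animals, were set against wild-type Foxp3-Gfp+ cells, and this is called the Cd4Cre array. On the other, called the Foxp3Cre array, deficient Tregs were set against wild-type Tregs with no reporter named, which the design gives for Bcl11bF/F/Foxp3Cre mice. The labels of the arrays do not state the Cre, so this assignment rests on the reporter. Cd4Cre acts in developing T cells, before the CD4 and CD8 lineages part, whereas Foxp3Cre is driven by Foxp3 itself and so acts after Treg fate is taken. The wild-type pools held cells of 3 mice each. The labels state no number of mice for the deficient pools, no age, and no Cre in the wild-type animals.

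There was 1 two-colour array per Cre system. Wild-type RNA carried Cy3 and deficient RNA Cy5 each time, so there was no dye swap and no replicate. No p-value can be given for a single array, and Cre system, array, hybridisation and version of the scanner software cannot be told apart. A ratio is the log2 of deficient over wild-type signal after loess normalization, so values below 0 mean less signal from the deficient pool. A signal is a log2 intensity per channel, scaled between the arrays, and the signal of a gene is compared only between pools for 1 probe. A summed signal is the log2 of the intensities added over the detected genes of a list. Its brightest genes weigh most, and it does not measure the amount of a cell type. The error beside a ratio is the scanner software's error for that probe on that array, turned into log2 units. It covers the measurement and not the spread between mice.

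Immediate early genes are transcribed within minutes of a stimulus, from factors already present in the cell. In T cells the stimulus is often the antigen receptor, which acts through calcium, NFAT and Mef2 factors on the Nr4a genes, and through Ras, MAP kinases and serum response factor on the Egr genes. Egr1, Egr2 and Egr3 are zinc finger transcription factors, and Nab2 is a corepressor that binds them and is itself induced by them. Nr4a1, Nr4a2 and Nr4a3 are orphan nuclear receptors. Nr4a1 serves as a reporter of antigen receptor signalling, and Nr4a factors and Egr2 are known for roles in Treg development and T cell tolerance.

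At its brighter probe Bcl11b itself read -2.46 (Cd4Cre array) and -1.82 (Foxp3Cre array), and its second probe -1.19 and -0.32 (error 0.21). The targeted gene therefore read below wild type in both deficient pools at both probes. At the second probe on the Foxp3Cre array this was by only 1.24-fold, within 2 errors of 0. Each array had 43379 gene spots. Between 20689 and 24439 of these were well above background per channel, and none was saturated. Foxp3, the sorted marker, read -3.57 and -0.20 in the same order. The 9 Treg and T cell markers had medians of -1.13 and 0.15, and their summed signal was 18.58 in the wild-type and 17.98 in the deficient Cd4Cre pool. In the deficient Cd4Cre pool, 6 of 10 myeloid markers lay above wild type by 2-fold or more and 2 lay past 2-fold the other way (summed signal 15.61 in wild type and 18.86 in deficient). Also at least 2-fold higher there were 6 of 7 NK cell markers (15.34 and 17.91) and both CD8 markers, and 2 of 5 detected B cell markers (14.53 and 15.99). In the Foxp3Cre pools 4 of 10 myeloid markers and the platelet gene Pf4 (2.51) were higher by at least 2-fold and 1 myeloid marker lower. All 6 salivary gland markers lay at least 2-fold below wild type in the deficient Foxp3Cre pool (summed signal 16.41 and 12.41). The part of these markers in the results below was not tested. In pooled bulk RNA, fewer cells of a type and less RNA per cell cannot be told apart.

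The promoter windows below are shown because the members differ in the signal-responsive motifs they carry just before their transcript starts. Of the 10 members, Egr1, Egr3 and Ier2 were not examined, which does not show that they lack a window. RefSeq windows (GRCm38.p6) of 250 bases before the start, matched by symbol, were examined for 7 members: Egr2, Nr4a1, Nr4a2, Nr4a3, Nab2, Ier3 and Btg2. Each is printed on the strand of its gene, 5′ to 3′. Capitals mark matches on either strand to the core of the cAMP response element (TGACG), the full element (TGACGTCA, which contains the core on both strands), the CArG box bound by serum response factor, or an NF-kappaB site (GGAATTTCC). Nr4a1 lies at chr15:101266596-101266845 on the plus strand, and Nr4a2 at chr2:57124004-57124253 on the minus strand. Egr2 lies at chr10:67537619-67537868 on the plus strand, the third of its 5 listed starts. Btg2 lies at chr1:134079156-134079405 on the minus strand, and Ier3 at chr17:35821463-35821712 on the plus strand.
Nr4a1: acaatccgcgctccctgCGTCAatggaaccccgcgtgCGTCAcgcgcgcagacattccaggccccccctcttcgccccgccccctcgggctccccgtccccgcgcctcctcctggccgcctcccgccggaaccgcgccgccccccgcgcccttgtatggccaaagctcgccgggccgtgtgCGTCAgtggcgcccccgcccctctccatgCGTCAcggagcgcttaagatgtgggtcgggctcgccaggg
Nr4a2: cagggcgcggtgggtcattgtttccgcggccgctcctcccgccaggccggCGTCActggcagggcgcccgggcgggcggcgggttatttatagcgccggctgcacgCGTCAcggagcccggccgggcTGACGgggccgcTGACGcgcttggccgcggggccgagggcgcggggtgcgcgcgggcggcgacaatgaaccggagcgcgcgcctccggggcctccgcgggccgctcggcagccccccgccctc
Egr2: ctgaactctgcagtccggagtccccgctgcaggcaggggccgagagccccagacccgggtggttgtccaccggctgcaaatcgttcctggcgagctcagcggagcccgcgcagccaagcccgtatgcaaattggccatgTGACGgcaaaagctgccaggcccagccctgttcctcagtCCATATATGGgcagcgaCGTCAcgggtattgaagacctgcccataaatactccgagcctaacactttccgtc
Btg2: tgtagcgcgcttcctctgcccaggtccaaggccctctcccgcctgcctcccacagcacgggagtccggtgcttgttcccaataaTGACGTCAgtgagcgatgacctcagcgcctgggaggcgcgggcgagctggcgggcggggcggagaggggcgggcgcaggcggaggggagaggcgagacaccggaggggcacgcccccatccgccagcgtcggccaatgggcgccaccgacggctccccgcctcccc
Ier3: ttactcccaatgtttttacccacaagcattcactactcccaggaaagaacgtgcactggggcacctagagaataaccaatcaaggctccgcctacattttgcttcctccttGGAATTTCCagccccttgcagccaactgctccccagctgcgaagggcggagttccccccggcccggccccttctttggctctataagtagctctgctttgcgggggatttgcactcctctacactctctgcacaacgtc

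The core TGACG was found in 5 of the 7 members examined, and 19.8% of the 27025 genes with a window hold it in at least 1. The windows of Nr4a1, Nr4a2 and Nr4a3 each held 4 copies. The share of all genes that hold 4 copies was not counted. In Nr4a1 they lay between 233 and 36 bases before the start, in Nr4a2 within the last 200, and in Nr4a3 between 231 and 143. The Nr4a2 window was 80.0% G or C and that of Nr4a1 74.4%, against a median of 52.4% over all windows. Btg2 alone among the 7 held the full element TGACGTCA, from 166 to 159 bases before its start, which 1.77% of genes hold. Its 2 core matches lie inside that element. Egr2 alone among the 7 held a CArG box, from 72 to 63 bases before the start shown, with a core TGACG on each side of it. The box is held by 1.62% of genes. Ier3 alone among the 7 held GGAATTTCC, from 139 to 131 bases before its start, a motif held by 0.344% of genes. No member window held the Egr site GCGTGGGCG (0.622% of genes) or the Nr4a site AAAGGTCA (1.55% of genes), and Nab2 had no match to any of the 6 motifs. The motifs were chosen after the sequences were seen. A match is a string of letters in a window and does not show binding.

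**Figure D1:**
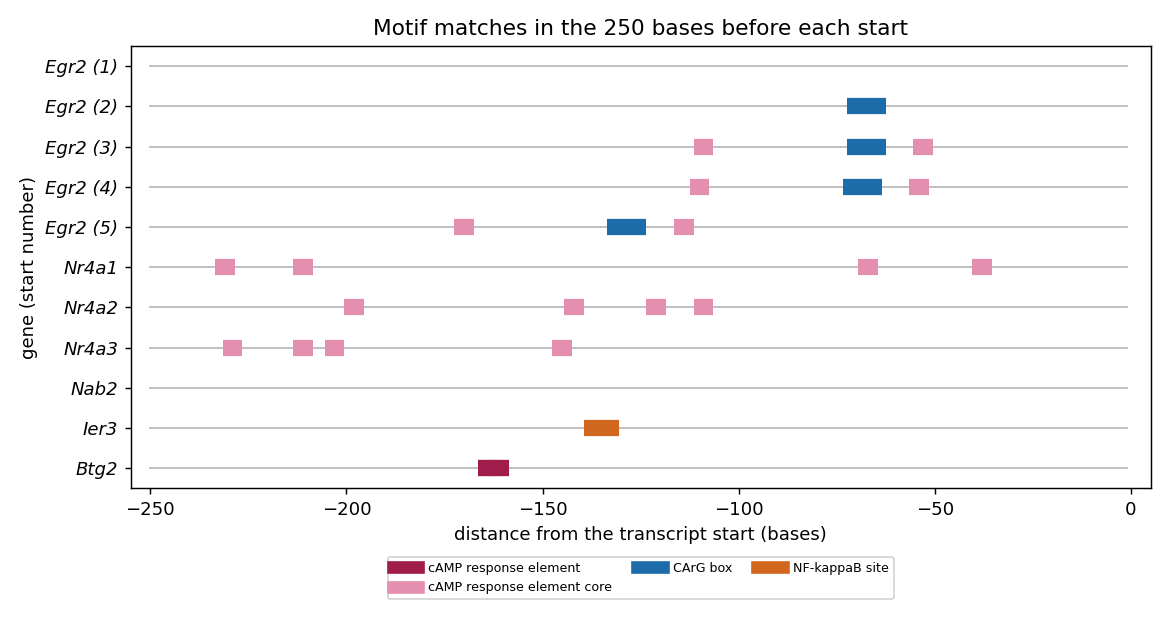
Positions of motif matches in the 250 bases before each listed transcript start of 7 members; the horizontal axis is the distance from the start in bases, each line is 1 window and each block 1 match, with colours for the motifs. The 3 Nr4a genes carry 4 TGACG cores each, and the share of all genes with 4 was not counted. Among these 7 members a CArG box appears only in Egr2, in 4 of its 5 windows, some of which overlap and share the same box. The NF-kappaB site appears only in Ier3 and the full cAMP response element only in Btg2, whose 2 cores lie under it. Egr1, Egr3 and Ier2 were not examined.

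Of the Nr4a receptors, Nr4a1 and Nr4a2 had the lowest ratios among the 10 genes on the Cd4Cre array. Nr4a1 (probe at chr15:101105071-101105130, mm9) had a signal of 18.07 in the wild-type and 15.25 in the deficient Cd4Cre pool, and of 15.59 and 14.22 in the Foxp3Cre pools. Both deficient pools lay below both wild-type pools, and the wild-type Cd4Cre pool stood far above the other three. The ratio was -2.82 (error 0.34) on the Cd4Cre array, 7.06-fold lower, and 0.208% of the 15873 genes detected there read lower. It was -1.36 (error 0.24) on the Foxp3Cre array, 2.57-fold lower, and 4.19% of the 15190 genes detected there read lower. With median centring in place of loess these ratios shrank to -1.54 and -0.46, so the 2-fold difference held only on the Cd4Cre array.

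Nr4a2 (probe at chr2:56960699-56960758, mm9), the receptor best known from dopaminergic neurons and also induced in T cells, separated the arrays more than Nr4a1 did. Its signal was 13.27 in the wild-type and 11.11 in the deficient Cd4Cre pool, against 10.17 and 9.82 in the Foxp3Cre pools. Both Cd4Cre pools were above both Foxp3Cre pools. The ratio was -2.16 (error 0.29) on the Cd4Cre array, 4.47-fold lower, and -0.35 (error 0.21) on the Foxp3Cre array, 1.28-fold lower. Median centring moved these little, to -1.95 and -0.28. Nr4a3, the third receptor (mm9 interval chr4:48080690-48083876), was well above background only in the wild-type Cd4Cre pool, at 7.98 against 7.40 in the deficient pool. Set against the lowest signal well above background in the deficient channel, it was at least 1.07-fold lower, a bound open to dye bias. The authors' deposited ratio for the same spot was -2.45 in log2 units, against -0.58 (error 0.70) after loess, so the size of its difference changed with the processing. In the Foxp3Cre pools Nr4a3 was not well above background.

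**Figure D2:**
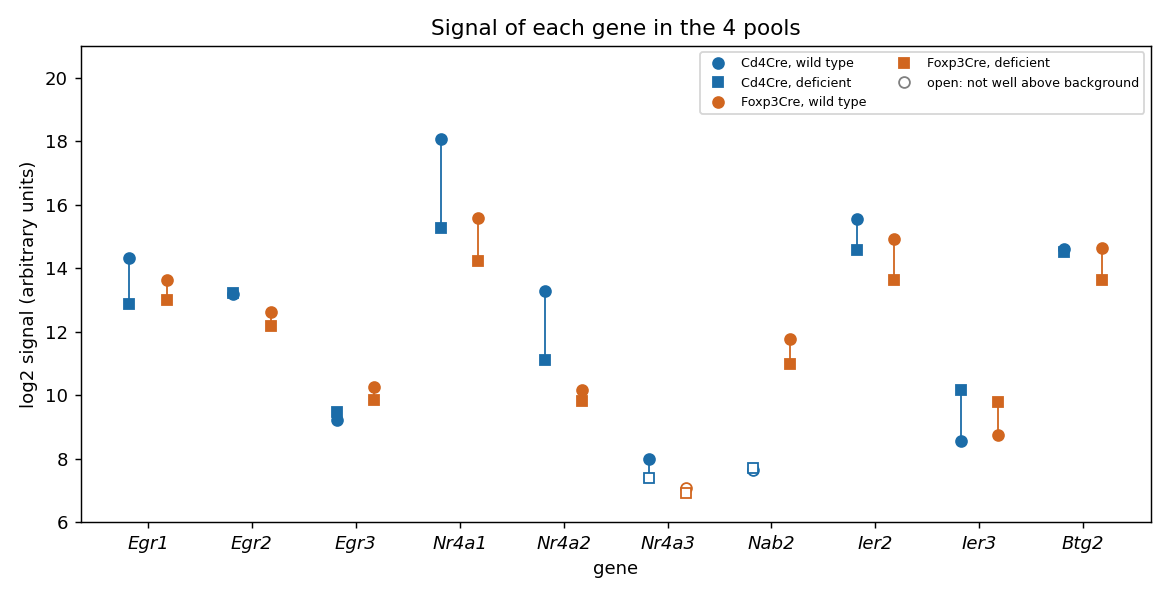
Log2 signal (arbitrary units, scaled between arrays) of the brightest probe of each gene in the 4 pools, with circles for wild type, squares for Bcl11b-deficient, blue for the Cd4Cre array, orange for the Foxp3Cre array, a line joining the pools of an array, and open symbols where a pool was not well above background. Nr4a1 and Nr4a2 span the widest gaps, from 18.07 to 15.25 and from 13.27 to 11.11 on the Cd4Cre array, and Ier3 is the gene whose deficient pool lies above wild type by over 1 unit on both arrays.

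Of the Egr factors, Egr1, a common readout of MAP kinase signalling, was lower in both deficient pools. Its signal was 14.31 in the wild-type and 12.89 in the deficient Cd4Cre pool, and 13.64 and 13.01 in the Foxp3Cre pools. The ratio was -1.42 (error 0.24), 2.68-fold lower, for Cd4Cre and -0.63 (error 0.21), 1.55-fold lower, for Foxp3Cre. With median centring the ratios were -0.92 and -0.08, which takes Egr1 under 2-fold on the Cd4Cre array and close to even on the other.

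Egr2, a factor that restrains T cell activation, was near even on the Cd4Cre array. Its signal was 13.20 in both Cd4Cre pools, and 12.63 in wild type against 12.17 in deficient on the Foxp3Cre array. Its probe (chr10:67004758-67004817, mm9) was printed 10 times on each array, so its ratio can be given with a spread: 0.0066 ± 0.050 (SD over 10 spots) on the Cd4Cre array, with spots from -0.061 to 0.082, and -0.47 ± 0.052 (SD over 10 spots) on the Foxp3Cre array, with spots from -0.54 to -0.39. The spots of the 2 arrays did not overlap. These spots share 1 hybridisation, so the SD is technical. With median centring the same ratios were 0.42 and -0.08, a shift larger than the spread between spots.

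Egr3, which acts beside Egr2 in T cell tolerance, also read on opposite sides of 0. Its brighter probe (chr14:70481979-70482038, mm9) had signals of 9.23 in wild type and 9.48 in deficient on the Cd4Cre array, and 10.25 and 9.86 on the Foxp3Cre array. The ratios were 0.25 (error 0.22) and -0.39 (error 0.21), each within 2 errors of 0. The second probe (chr14:70478827-70478886, mm9) read -0.11 on the Cd4Cre array, where it was above background in wild type alone, and was dim in both Foxp3Cre pools. The 3 Egr genes therefore did not read alike on the Cd4Cre array: Egr1 was 2.68-fold lower beside Egr2 at 0.0066 and Egr3 at 0.25. On the Foxp3Cre array all 3 read between -0.63 and -0.39, less than 2-fold lower.

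Nab2, the Egr corepressor (probe at chr10:127097981-127098040, mm9), was not well above background in either Cd4Cre pool, at 7.63 and 7.72. In the Foxp3Cre pools it was well above background, at 11.78 in wild type and 11.00 in deficient, with a ratio of -0.78 (error 0.21), 1.72-fold lower. Its related gene Nab1 read 0.04 (Cd4Cre) and 0.31 (Foxp3Cre).

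Ier2, a short-lived nuclear protein of the early response, was lower in both deficient pools by a like amount. Its brighter probe (chr8:87185211-87185245, mm9) had signals of 15.56 and 14.57 in the Cd4Cre pools and 14.91 and 13.64 in the Foxp3Cre pools, wild type first. The ratios were -0.99 (error 0.22), 1.98-fold lower and just outside the 2-fold limit, and -1.28 (error 0.23), 2.42-fold lower. The second probe (chr8:87183623-87183681, mm9) read -1.62 (error 0.28) and -1.32 (error 0.29). With median centring the brighter probe read -0.13 and -0.53.

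Ier3, an early gene that is a target of NF-kappaB and modulates cell survival, was the only one of the 10 that was higher in both deficient pools. Its probe (chr17:35959528-35959587, mm9) had signals of 8.55 in wild type and 10.18 in deficient on the Cd4Cre array, and of 8.74 and 9.80 on the Foxp3Cre array. Both deficient pools lay above both wild-type pools. The ratio was 1.63 (error 0.29), 3.1-fold higher, for Cd4Cre and 1.06 (error 0.26), 2.08-fold higher and just inside the limit, for Foxp3Cre. Median centring gave 1.52 and 1.06, the authors' deposited ratio 2.16 and 1.44 in log2 units, and no background subtraction took the Foxp3Cre value to 0.99. Markers of myeloid cells, which also express Ier3, differed too: 6 of 10 passed 2-fold upward and 2 downward in the Cd4Cre comparison, and 4 of 10 upward and 1 downward in the Foxp3Cre comparison. Their part in the Ier3 values was not tested.

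Btg2, an antiproliferative protein that binds the CCR4-NOT deadenylase, was near even on one array and lower on the other. Its brightest probe (chr1:135973916-135973975, mm9) had signals of 14.61 and 14.52 in the Cd4Cre pools, and of 14.65 and 13.63 in the Foxp3Cre pools, wild type first. The deficient Foxp3Cre pool stood below the other three. The ratio was -0.09 (error 0.20) on the Cd4Cre array and -1.02 (error 0.22), 2.03-fold lower and just inside the limit, on the Foxp3Cre array. The other probes (chr1:135972094-135972153 and chr1:135974181-135974240, mm9) read -0.53 and 0.17 on the Cd4Cre array, and -0.57 and -0.49 on the Foxp3Cre array. The probes therefore differed in sign on the Cd4Cre array, and only the brightest passed 2-fold in the Foxp3Cre comparison. With median centring the brightest probe read 0.65 and -0.30.

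**Figure D3:**
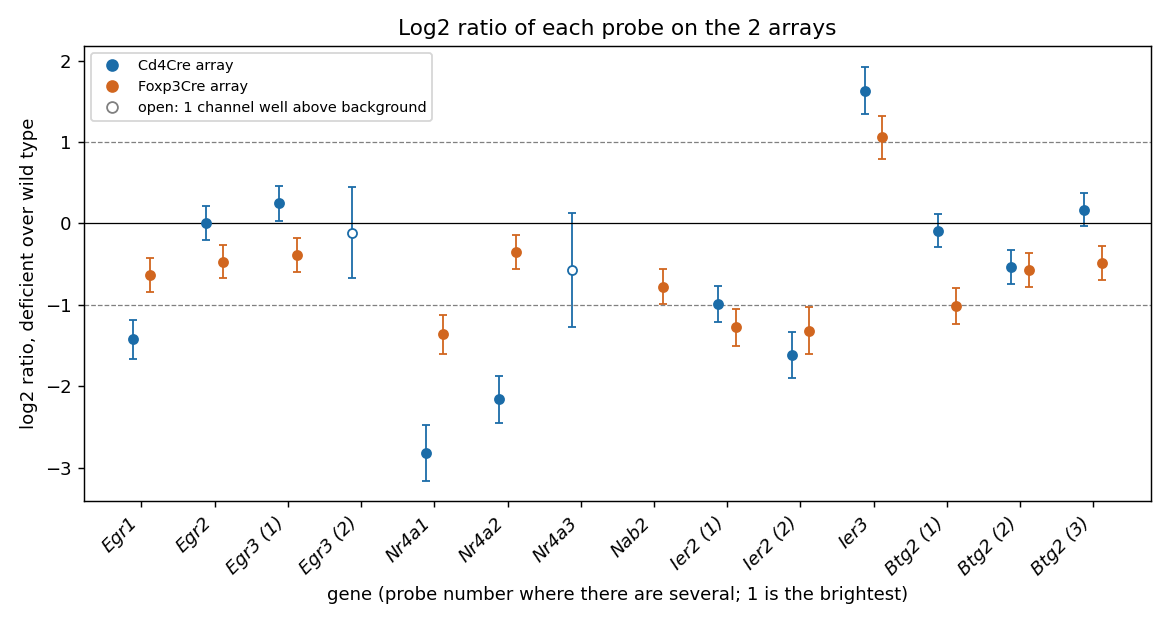
Log2 ratio of deficient over wild type for each probe of the 10 genes on the Cd4Cre array (blue) and the Foxp3Cre array (orange), with bars of 1 scanner software error to each side, dashed lines at 2-fold, and open symbols where 1 channel was well above background; probes dim in both channels of an array are not drawn. Nr4a1 at -2.82 and Nr4a2 at -2.16 are the lowest Cd4Cre values, Ier3 is above 2-fold on both arrays, and the 2 probes of Ier2 lie between -1.62 and -0.99.

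Over the set, 9 of the 10 genes were detected on the Cd4Cre array, all but Nab2, and 9 on the Foxp3Cre array, all but Nr4a3. On the Cd4Cre array 3 of 9 were at least 2-fold lower (Egr1, Nr4a1 and Nr4a2), where 10.6% of all detected genes were, and 1 of 9 was at least 2-fold higher (Ier3), where 11.4% of all were. On the Foxp3Cre array 3 of 9 were at least 2-fold lower (Nr4a1, Ier2 and Btg2), beside 11.5% of all genes, and 1 of 9 was at least 2-fold higher (Ier3), beside 2.94%. Of the 8 members detected on both arrays, 1 was at least 2-fold lower on both (Nr4a1), beside 4.56% of all genes, and 1 at least 2-fold higher on both (Ier3), beside 1.34%. The members' median ratio was -0.58 (Cd4Cre) and -0.63 (Foxp3Cre), while all genes had medians of -0.05 and -0.08. The Cd4Cre median is the value of Nr4a3, and with Nr4a3 at its bound it was -0.10. With median centring no member was at least 2-fold lower on the Foxp3Cre array, where 6.73% of all genes still were.

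**Figure D4:**
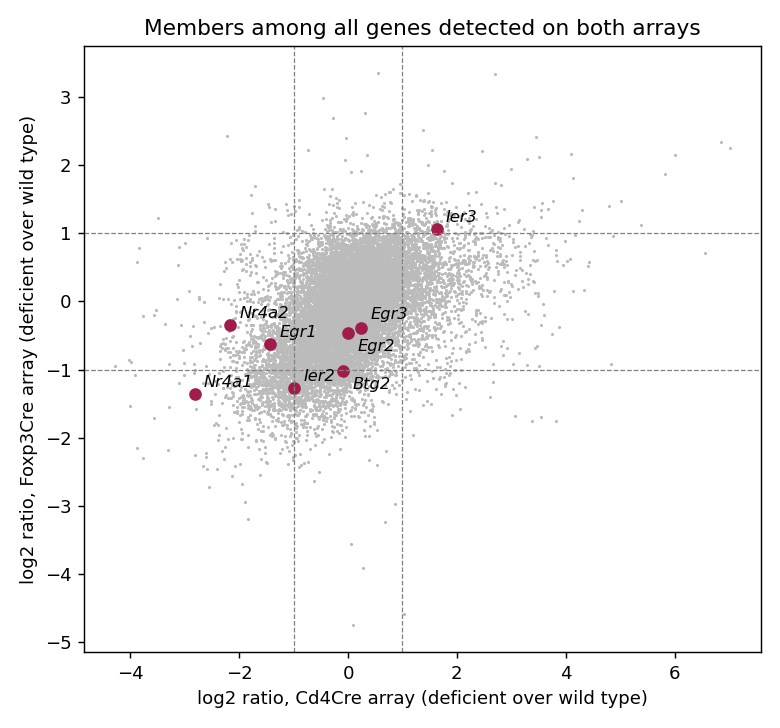
Log2 ratio on the Cd4Cre array (horizontal) against that on the Foxp3Cre array (vertical) for all genes detected on both (grey) and the 8 members detected on both (dark red), with dashed lines at 2-fold. Nr4a1 is the member past the lower line on both arrays and Ier3 the member past the upper line on both, while Nr4a2 lies at -2.16 and -0.35.

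The ratio on the Cd4Cre array minus that on the Foxp3Cre array was -1.81 for Nr4a2, -1.46 for Nr4a1 and -0.79 for Egr1. It was above 0 for the other members detected on both, at 0.93 for Btg2, 0.63 for Egr3, 0.57 for Ier3, 0.48 for Egr2 and 0.29 for Ier2. With the mean over probes Ier2 read -1.30 on each array, and at its second probe the sign turned. Btg2 by that mean read -0.15 (Cd4Cre) and -0.69 (Foxp3Cre). Its other probes read 0.17 and -0.49, and -0.53 and -0.57, in the same order. The Btg2 difference therefore kept its sign at every probe but was close to 0 at the last of these. With 1 array per Cre system none of these differences could be tested. For Nr4a2 and Nr4a1 the wild-type pools differed more than the deficient pools did. The wild-type Cd4Cre pool was above the wild-type Foxp3Cre pool by 3.1 for Nr4a2 and by 2.49 for Nr4a1, and the deficient pools differed by 1.29 and 1.03 in the same direction. For Egr1 the wild-type difference was 0.67 and the deficient difference -0.12, but without scaling between the arrays they were 0.36 and -0.43, so it is not settled which pools differed more. For Btg2 at its brightest probe the order was the other way: the wild-type pools differed by -0.04 and the deficient pools by 0.89. Without scaling the order held for Nr4a2 (2.95 and 1.14), Nr4a1 (2.14 and 0.69) and the brightest Btg2 probe (-0.32 and 0.61). It did not hold at the other Btg2 probes. Unscaled, with Cd4Cre first, 1 of them read 14.44 and 14.73 in wild type and 13.91 and 14.16 in deficient. The other read 13.00 and 13.52 in wild type and 13.17 and 13.04 in deficient.

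The mean of both arrays was tested against 0 with limma, a fit in which the gap between Cre systems counts as spread. Both arrays had the dyes the same way round, so a dye bias of a probe would enter both ratios and the mean alike and cannot be told apart from a difference between the pools. None of 14375 genes passed an adjusted p of 0.05 (0% called), 3254 had an unadjusted p under 0.05, and the lowest adjusted p was 0.0955. Among the 8 members tested, 5 had an unadjusted p under 0.05. Nr4a1 had a mean of -2.09 (SE 0.41, lower on 2 of 2 arrays, limma adjusted p 0.100) and Ier3 of 1.35 (SE 0.34, higher on 2 of 2, adjusted p 0.101). Ier2 followed at -1.13 (SE 0.33, limma adjusted p 0.117), Egr1 at -1.03 (SE 0.35, adjusted p 0.150) and Nr4a2 at -1.26 (SE 0.46, adjusted p 0.164). Btg2, Egr2 and Egr3 had means of -0.55, -0.23 and -0.07 with limma adjusted p from 0.395 to 0.926. Nr4a3 and Nab2 were not detected on both arrays and were not tested. No member therefore passed the test.

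**Figure D5:**
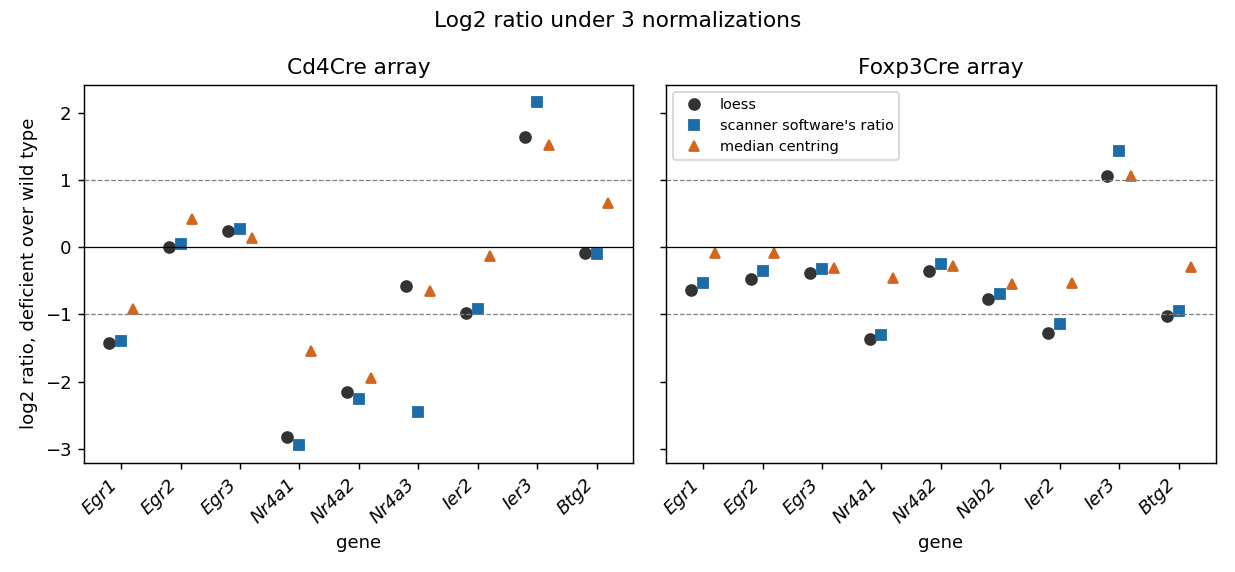
Log2 ratio of each detected member under loess (black circles), the scanner software's deposited ratio (blue squares) and median centring without loess (orange triangles), for the Cd4Cre array (left) and the Foxp3Cre array (right), with dashed lines at 2-fold. Loess and the deposited ratio lie close except for Nr4a3 and Ier3, and median centring raises the ratios of Egr1, Egr2, Nr4a1, Ier2 and Btg2 on both arrays, so that Nr4a1 on the Foxp3Cre array moves from -1.36 to -0.46.

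Other genes of the pathway were read from lists. Of 34 other immediate early genes, 33 had a probe. On the Cd4Cre array 19 of the 32 detected were at least 2-fold lower and none higher, with a median of -1.75 (-1.02 with median centring). For this and the next lists, the share of all detected genes at least 2-fold lower is the 10.6% (Cd4Cre) or 11.5% (Foxp3Cre) given above. The share at least 2-fold higher is 11.4% (Cd4Cre) or 2.94% (Foxp3Cre). The lowest were Tnfaip3, an inhibitor of NF-kappaB signalling, at -4.02, Ppp1r15a, a stress-induced phosphatase subunit, at -3.57, Maff, a small bZIP factor, at -3.52, and Fos, the AP-1 subunit, at -3.14. On the Foxp3Cre array 6 of 31 were at least 2-fold lower and none higher, with a median of -0.43 that turned to 0.18 with median centring. The lowest there were Ppp1r15a at -1.71, Csrnp1 at -1.36 (another of its 3 probes read -0.25), the clock gene Per1 at -1.26 and Klf2, a factor of T cell migration, at -1.12. Nr4a1 thus read in the same direction as most early genes on the Cd4Cre array, while Egr2 was near even at 0.0066. Egr3 read 0.25 there (error 0.22) and -0.11 at its second probe. Of 10 heat shock genes, which mark handling stress, none was 2-fold lower or higher on the Cd4Cre array at its brightest probe (median -0.34). Another probe there read -1.80 for Dnajb1, -1.65 for Hspa8 and 1.12 for Hspa1b. On the Foxp3Cre array Hspa1a at 2.40 and Hspa1b at 2.08 were higher (median 0.20). Another probe there read -1.25 for Hspa8 and -1.07 for Hsp90ab1. With median centring these medians were 0.56 and 1.32. Their part in the members' values was not tested.

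Among 24 upstream kinases and transcription factors, 4 of 23 detected were at least 2-fold lower and 1 higher on the Cd4Cre array (median -0.37), and 4 of 23 were lower and none higher on the Foxp3Cre array (median -0.70). With median centring 2 were lower on each array, and the medians were -0.22 and -0.37. Mef2d, a calcium-regulated activator of Nr4a1, read -2.53 and -1.46 at its brightest of 3 probes, with others up to -0.75 and -0.11. Mkl1, a coactivator of serum response factor, read -1.42 and -1.19, with its other probe at -0.46 on the Foxp3Cre array. Mapk8, the kinase JNK1, read -1.31 on the Foxp3Cre array, but its 4 probes reached 0.75. Rasgrp1, which activates Ras below the antigen receptor, read -1.32 on the Cd4Cre array, and Nfatc1, a calcineurin-dependent factor, -1.05 on the Foxp3Cre array, with its other probe at -0.39. Mef2c read 2.96 on the Cd4Cre array at its brightest probe and 0.59 at the other. Of 11 corepressor and partner genes, 3 of 11 detected were at least 2-fold lower on the Cd4Cre array (median -0.74) and 5 of 10 on the Foxp3Cre array (median -1.0), with none higher. The chromatin remodeller Chd3 read -2.28 on the Cd4Cre array, with its 5 probes between -2.88 and -0.90. Rcor1, a partner of histone demethylase Lsd1, read -1.60 on the Foxp3Cre array, with another of its 3 probes at -0.24. Ncor1, a nuclear receptor corepressor, read -1.78 and -1.57 at its brightest probe, but its 6 probes reached 0.70 and -0.08. With median centring 1 gene of this list was at least 2-fold lower on each array. Of the 16 Btg, Tob and CCR4-NOT genes, 15 were detected on each array, with 3 at least 2-fold lower on the Cd4Cre array (median -0.42) and 1 on the Foxp3Cre array (median -0.16). Tob2, an antiproliferative relative of Btg2, read -1.39 and -1.10, and Zfp36l1, an mRNA decay factor, -1.76 on the Cd4Cre array. Both medians turned to above 0 with median centring, at 0.08 and 0.20.

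T cell genes that have been named as Egr or Nr4a targets were read from a list of 22, of which 21 were detected on each array. On the Cd4Cre array 10 were at least 2-fold lower and 1 higher, with a median of -0.78. With median centring 7 were lower there, and the median was -0.52. The lowest were Foxp3 at -3.57, the inhibitory receptor Ctla4 at -3.48, the IL-2 receptor chain Il2ra at -2.86 and Ikzf2 at -1.99, which also belong to the Treg markers. The 4 probes of Il2ra ranged from -2.86 to -0.97 there. On the Foxp3Cre array 3 were at least 2-fold lower and 1 higher, with a median of -0.21 that turned to 0.30 with median centring. Cd5, whose level follows antigen receptor signalling, read -1.25 there and Dgkz, a kinase that dampens Ras signalling, -1.22, while Ctla4 read 1.22. Cblb, a ubiquitin ligase of T cell tolerance, read -1.74 there with its deficient pool not well above background, and 0.03 at its other probe.

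By distance between pairs of ratios over the 2 arrays, the genes nearest to Nr4a1 (-2.82 and -1.36) were the transcript TC1632976 (-2.77 and -1.30), Plekhg2 (-2.80 and -1.58), Nfkbid (-2.67 and -1.19), Mef2d (-2.53 and -1.46) and Mxd4 (-2.56 and -1.19), at distances from 0.075 to 0.31. The genes nearest to Egr1 (-1.42 and -0.63) were Plk3 (-1.41 and -0.65), Olfr279 (-1.45 and -0.61), Fmnl1 (-1.42 and -0.59), the transcript TC1637729 (-1.40 and -0.67) and Cyth3 (-1.46 and -0.61), all within 0.044. The neighbours of Nr4a1 lay farther from it than those of Egr1 did. Likeness over 2 arrays describes these pools only.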

How the data were processed

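Amplified RNA of sorted cells was hybridised to 2 two-colour Agilent arrays. Per the file headers, the scanner software was Agilent Feature Extraction 10.5.1.1 (Cd4Cre) or 10.7.3.1 (Foxp3Cre); the submitters' processing notes name 10.5.1. The authors deposited the mean and background intensity per channel, a log10 ratio with its error, and flags. The deposited value table equals that log10 ratio. The aligner and annotation behind the mm9 probe positions are not given in the sources used here.

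From the intensities, background was corrected with normexp (offset 50) and log2 ratios were normalized by loess in limma 3.58.1 (R 4.3.3), without control spots and spots marked as outliers. Signals were scaled between arrays by Aquantile. Spots of a probe were averaged, and the brightest probe stood for its gene, which counted as detected on an array where at least 1 channel was well above background. Genes were counted at 2-fold, and limma tested the mean of both arrays against 0 with Benjamini-Hochberg adjustment. Of the steps described here, only this limma fit was tried on simulated data. Probes were named through a RefSeq table (GRCm38.p6): 24844 of 41174 by accession, 6045 by symbol and 1810 by synonym, while 8475 kept the file's name. Precision rests on 1 array per system.

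The text names every member, genes among the 4 of a list farthest from 0 and at least 2-fold on an array (Nab1 was chosen after values were seen), and the 5 genes nearest to Egr1 and Nr4a1. Several list genes within this rule enter the counts and are not reported here by name. Members and lists were chosen with earlier results of these data known. Alternatives were no background subtraction, offset 10, median centring, the deposited ratio, no filter on dim probes, both channels of both arrays above background, the mean over probes, no scaling between arrays, an intensity trend, keeping marked spots, and, chosen after seeing the data, Nr4a3 at its bound or left out.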

Additional observations from a re-analysis of the deposited data

Results flagged for a closer look

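Egr2 and Egr3 read on opposite sides of 0 on the 2 arrays. Egr2 was 0.0066 (Cd4Cre) and -0.47 (Foxp3Cre), and its Cd4Cre value changed sign to -0.0032 without background subtraction. Egr3 was 0.25 (Cd4Cre) and -0.39 (Foxp3Cre), each within 2 errors of 0. With 1 array per Cre system these differences were not tested.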

How the results depend on the processing

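The members' median ratio on the Cd4Cre array (-0.58) was -0.13 with median centring, -0.92 with the deposited ratio, -0.33 with no filter on dim probes and -0.10 with Nr4a3 at its bound. On the Foxp3Cre array, median centring gave a median of -0.30 and 0 members at least 2-fold lower, and no background subtraction gave 0 members at least 2-fold higher. Genes called by limma numbered 311 with median centring and 39 when both channels of both arrays had to be above background, with 0 members among them in either. The means of Egr2 and Btg2 over both arrays turned to 0.17 and 0.18 with median centring. The cause was not tested. Under median centring all genes had medians of 0.07 (Cd4Cre) and 0.16 (Foxp3Cre). It moved the genes at least 2-fold lower and higher from 1682 and 1809 to 1319 and 2858 on the Cd4Cre array, and from 1749 and 446 to 1022 and 2044 on the Foxp3Cre array; with the deposited ratio they were 2964 and 2393, and 2021 and 1155. Offset 10, the mean over probes, an intensity trend and keeping marked spots left each count within 1.5 times its value. Signal over background limits Nr4a3 and Nab2. No paired analysis was possible because each Cre system has 1 array. Leaving out an array leaves the other's value with no test.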

Other observations

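Nab2 was dim in both Cd4Cre pools and well above background in both Foxp3Cre pools. Of the 27969 genes, 458 were dim in both channels on the Cd4Cre array and above background in both on the Foxp3Cre array, and the opposite held for 341 genes.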
